A study of Homo sapiens with 12 samples.

Results

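Transcript levels of 10 heat shock protein and cochaperone genes were followed in H1975 cells, a human lung adenocarcinoma line, after induction of a control hairpin or of 1 of 3 hairpins against KAT5, also called TIP60, an acetyltransferase of histones and other proteins that works in the NuA4 complex. The genes were taken as a listed set of symbols and found by symbol and NCBI gene ID among the 20433 genes listed in the files: HSP90AA1 (3320), HSP90AB1 (3326), HSPA1A (3303), HSPA1B (3304), HSPA8 (3312), HSPH1 (10808), DNAJB1 (3337), HSPD1 (3329), HSPE1 (3336) and HSPB1 (3315). All 10 were found, and all 10 passed the filter on low counts, with a lowest count of 2007 in any library. Poly-A RNA was sequenced in 12 libraries, 3 each of the control hairpin (genotype label WT) and of the KAT5 knockdowns sh-A, sh-B and sh-C. Cells of all 4 groups, controls included, received 0.5 µg/ml doxycycline for 2 days, which switches the hairpin on. Only the last 2 of these hairpins are named in the design text, and sh-A is known from the titles and a deposited comparison. Every group is a derivative of 1 cell line, and the labels do not say whether a derivative is a clone or a pool, nor whether replicates were grown separately. P-values therefore measure the spread among these libraries, which may be technical.

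Heat shock proteins are molecular chaperones that bind unfolded or maturing proteins and help them reach or regain their native fold. HSP70 proteins work in cycles of ATP hydrolysis driven by DnaJ (HSP40) cochaperones and reset by nucleotide exchange factors such as the HSP110 proteins, HSP90 acts late on kinases, steroid receptors and other clients, and HSP60 with HSP10 forms the folding chamber of mitochondria. Many of these genes are induced by heat shock factor 1 (HSF1), which binds heat shock elements, arrays of inverted nGAAn units, in their promoters. Many cancer cells keep high chaperone levels without heat, and mutant epidermal growth factor receptor, which drives H1975 cells, is a known HSP90 client.

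To show what the members share besides their function, their promoters were read from RefSeq (GRCh38.p14), which covers 16 start sites of the 10 genes in windows from 250 bases before to 50 after the start. The arrays searched were GAANNTTCNNGAA and TTCNNGAANNTTC, each the reverse complement of the other and so covering both strands, and the shorter units GAANNTTC and TTCNNGAA, which read the same on both strands and overlap within the arrays. A 3-unit array was present in 0.49% of all 35116 promoter windows of the same length and in 4 of the 16 windows here, 1 each for HSP90AA1, HSP90AB1, HSPA8 and HSPD1. GAANNTTC was present in 6.77% of all windows and in 9 of the 16 windows here. These belonged to 8 of the 10 genes, the exceptions being HSPH1 and HSPE1. TTCNNGAA was present in 7.74% of all windows and in 4 of the 16 windows here, from the same 4 genes as the arrays. The stretches below are examples chosen to hold a match, written 5′ to 3′ on the strand of the gene, with matches to the searched motifs in capitals. HSP90AB1, HSPH1 and HSPE1 are not shown, nor are the other start sites of HSPD1, HSP90AA1 and DNAJB1. The stretch of HSPB1 is longer, 190 bases, and so takes in its match. The stretch of HSPD1 is the 30 bases around its array, and the other stretches end at the base before the start site.
HSPA1A, chr6:31815413-31815542, plus strand: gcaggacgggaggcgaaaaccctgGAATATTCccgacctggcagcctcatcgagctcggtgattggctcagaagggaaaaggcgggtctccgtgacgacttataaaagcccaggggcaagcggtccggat
HSPA1B, chr6:31827608-31827737, plus strand: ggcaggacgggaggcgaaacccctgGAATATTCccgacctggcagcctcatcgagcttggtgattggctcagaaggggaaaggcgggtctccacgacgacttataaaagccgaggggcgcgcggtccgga
HSPA8, chr11:123062137-123062266, minus strand: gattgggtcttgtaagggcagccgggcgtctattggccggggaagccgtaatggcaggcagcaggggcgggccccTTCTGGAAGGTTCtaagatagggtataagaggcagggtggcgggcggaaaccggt
HSP90AA1, chr14:102087045-102087174, minus strand: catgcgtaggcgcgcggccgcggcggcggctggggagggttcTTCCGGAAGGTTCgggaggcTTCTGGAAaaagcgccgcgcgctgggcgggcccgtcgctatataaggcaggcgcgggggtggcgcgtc
DNAJB1, chr19:14518398-14518527, minus strand: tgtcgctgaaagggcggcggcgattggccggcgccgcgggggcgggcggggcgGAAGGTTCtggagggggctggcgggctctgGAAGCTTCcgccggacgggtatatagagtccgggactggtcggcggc
HSPB1, chr7:76302483-76302672, plus strand: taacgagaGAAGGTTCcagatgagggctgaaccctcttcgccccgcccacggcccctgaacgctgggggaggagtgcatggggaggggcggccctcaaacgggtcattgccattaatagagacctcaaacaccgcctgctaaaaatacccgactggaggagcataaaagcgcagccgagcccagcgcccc
HSPD1, chr2:197500061-197500090, minus strand: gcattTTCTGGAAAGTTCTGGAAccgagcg
HSPA1A and HSPA1B carried the same unit, GAATATTC, which began 106 and 105 bases before their starts. HSPD1 and HSPE1 lie head to head, with 104 bases between a start of HSPD1 and that of HSPE1. A match is a description of letters, and binding was not measured here.

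Expected counts summed to between 15631504 and 28073366 per library, and the 10 genes held 1.17% to 1.98% of them. KAT5 transcript lay at 27.45 to 31.76 CPM (counts scaled to a common library size) in the controls, 18.73 to 19.96 with sh-A, 12.69 to 14.65 with sh-B and 7.30 to 8.24 with sh-C, so the labels held in every library and the hairpins differed in depth of knockdown. All 9 epithelial markers reached a mean of 1 CPM, as did 4 of 5 lung adenocarcinoma markers. The summed epithelial level was 5475 to 5761 CPM in the controls, 3322 to 3736 with sh-A, 4658.5 to 4940.4 with sh-B and 5901 to 6280.2 with sh-C, and 7 of the 9 markers fell with sh-A. The summed lung adenocarcinoma level was 93.9 to 105.9 CPM in the controls, 54.7 to 123.1 with sh-A, 50.6 to 68.3 with sh-B and 71.2 to 72.9 with sh-C, and NKX2-1 and NAPSA fell with sh-B. SFTPC was under 1 CPM, and NKX2-1 lay between 31.6 and 103 CPM. Of the fibroblast markers 7 of 8 were under 1 CPM in all libraries, as were 4 of 7 endothelial markers, while 5 of 7 leukocyte markers reached a mean of 1 CPM, with PTPRC between 0.661 and 2.18 CPM and CD68 between 59.2 and 174 CPM. The summed leukocyte level was 176.3 to 187.8 CPM in the controls, 106.5 to 128.4 with sh-A, 69.1 to 90.0 with sh-B and 115.0 to 149.9 with sh-C, and CD68 fell with each hairpin. These marker levels move with the hairpin groups, and their part in the results was not tested. Libraries sh-A 3, sh-B 3 and sh-C 1 stood apart from their groups: their median absolute log2 difference from a group mate was 0.142 to 0.256, against 0.076 to 0.098 between the other knockdown mates and 0.089 to 0.135 between controls. Values against the control are given below with all libraries and, where the call changed, also without these 3. The fit without these 3 was chosen after seeing the data. It leaves out the libraries farthest from their mates, which narrows the spread it measures. With sh-A it called 46.0% of all genes, against 26.7% with all libraries. A set of 118 genes was chosen as under 0.3 CPM in every library outside sh-A and above 3 CPM on average in sh-A. Its summed level was 2145, 388.3 and 396.5 CPM in sh-A 3, 4 and 5 against 2.4 to 4.1 CPM elsewhere. The choice fixes the contrast with the other groups, but not the spread within sh-A. The part of this set in the sh-A results was not tested.

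Compared per length, as FPKM (fragments scaled by transcript length and library size), the members covered a wide range of levels in control cells. HSP90AA1, the stress-inducible cytosolic HSP90, was the highest at 1725 ± 144 FPKM (SD, n = 3), which ranked 23 among the control means of all genes listed. HSPA8, the constitutive cytosolic HSP70, followed at 1134 ± 82.9 FPKM. HSPB1, the small heat shock protein HSP27, was at 925 ± 155 FPKM, and HSP90AB1, the constitutive HSP90, at 872 ± 64.6 FPKM. The control values of HSPA8 and HSPB1 overlapped, with 1061.9 FPKM for HSPB1 in control 3 and 1049.3 FPKM for HSPA8 in the same library, as did those of HSPB1 and HSP90AB1. The mitochondrial chaperonin genes came next, HSPD1 (HSP60) at 631 ± 53.0 FPKM and HSPE1 (HSP10) at 268 ± 10.5 FPKM. The 4 lowest members were HSPA1A at 75.4 ± 6.60 FPKM, HSPH1 (HSP110) at 72.4 ± 4.94 FPKM, DNAJB1 at 60.0 ± 0.409 FPKM and HSPA1B at 54.7 ± 4.88 FPKM. Among these, the values of HSPA1A and HSPH1 overlapped, as did those of DNAJB1 and HSPA1B. Summed over the 10 genes, the level was 5594 to 5961 FPKM in the controls, 6327 to 7733 with sh-A, 4712 to 6132 with sh-B and 6704 to 7051 with sh-C.

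**Figure D1:**
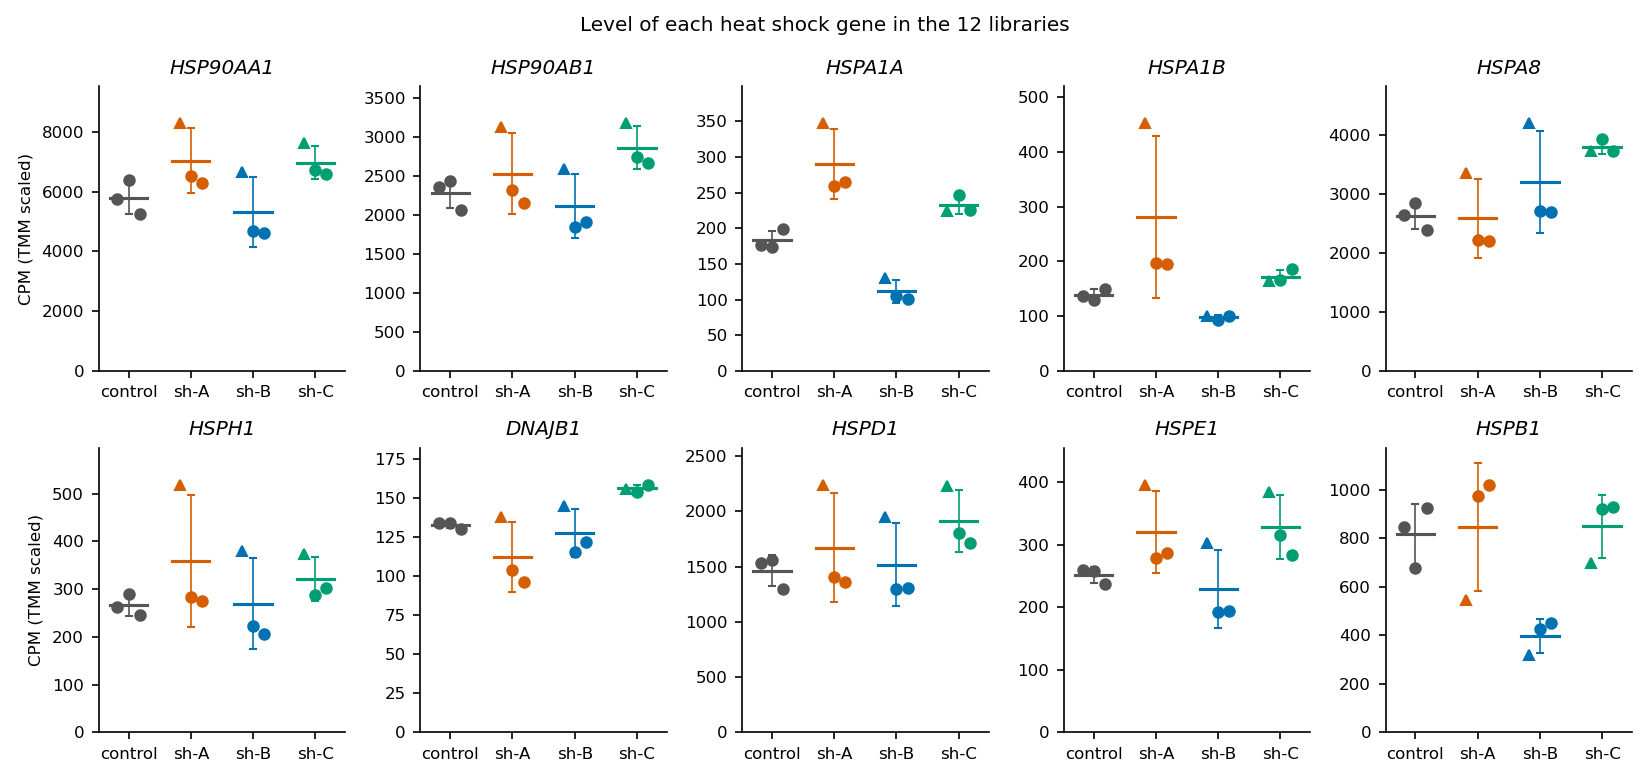
Scaled CPM (y axis, from 0) of each gene in the 12 libraries, by hairpin group (x axis); bars are the mean and SD over 3 libraries and triangles mark sh-A 3, sh-B 3 and sh-C 1. HSPA1A is higher in all 3 sh-A libraries (259.7 to 348 CPM) and lower in all 3 sh-B libraries (100.3 to 130.0 CPM) than in the controls (174 to 199 CPM), and HSPB1 is lowest with sh-B.

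With all libraries, the members that were called and their directions differed between the hairpins. With sh-A the inducible HSP70 genes HSPA1A and HSPA1B rose, with sh-B HSPA1A and the small heat shock gene HSPB1 fell, and with sh-C no member passed the test although all 10 estimates lay above 0 (HSPB1 at -0.02 with limma). Calls were made with the quasi-likelihood test of edgeR over 15592 genes, at a Benjamini-Hochberg adjusted p below 0.05. In sh-A against control, 2 of 10 members were called, both higher, where 26.7% of all genes tested were called and 14.4% were called higher. In sh-B against control, 2 of 10 were called, both lower, where 30.1% of all genes were called and 15.0% were called lower. In sh-C against control, 0 of 10 were called where 17.0% of all genes were, with 2 members (HSPA1A and HSPA8) and 32.8% of all genes at an unadjusted p below 0.05, and 2 members and 22.4% of all genes called by DESeq2. These shares are near or below those of all genes. The count for sh-C depended on the fit: on the control and sh-C libraries alone, 7 members were called, where 32.9% of all genes were. The median log2 change of the members was 0.23 with sh-A, -0.12 with sh-B and 0.32 with sh-C, beside 0.02, 0.00 and 0.00 over all genes tested. The libraries did not overlap the controls for 3 members with sh-A, 3 with sh-B and 8 with sh-C, where 43.7%, 48.7% and 45.4% of all genes did not. With sh-C 1, sh-A 3 and sh-B 3 left out, 6, 8 and 8 members were called for sh-A, sh-B and sh-C, beside 46.0%, 47.0% and 42.8% of all genes. All 8 for sh-B were lower, where 23.4% of all genes were called lower. All 8 for sh-C were higher, where 22.5% of all genes were called higher. The 6 for sh-A went both ways. The 3 comparisons share the control libraries.

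**Figure D2:**
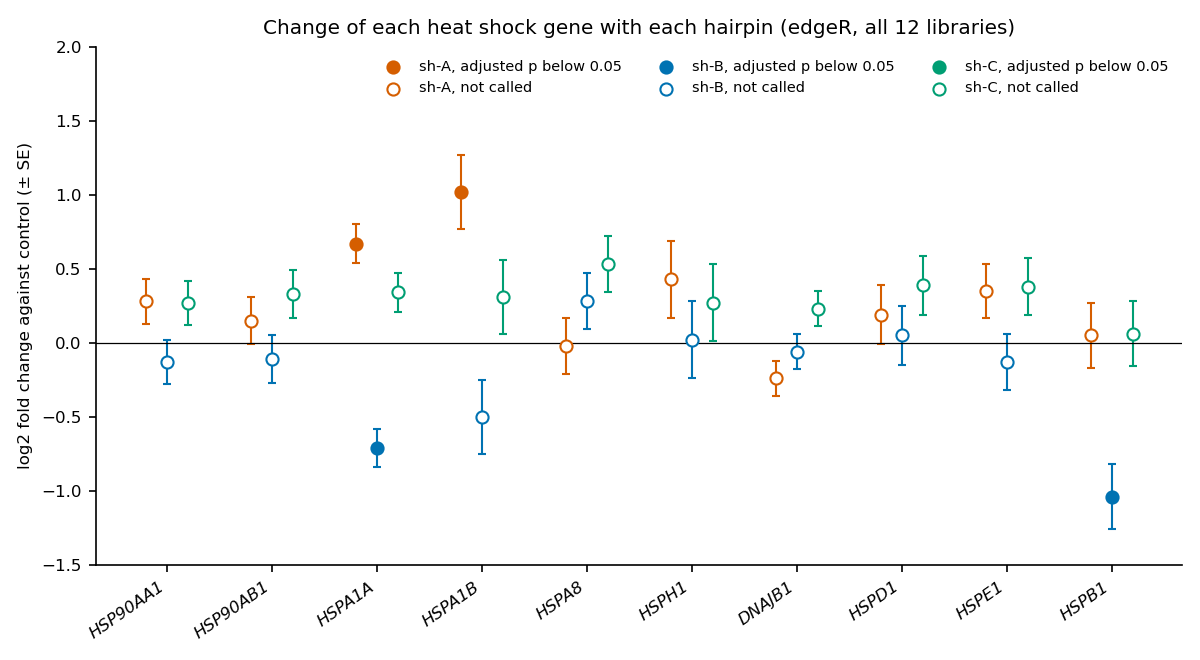
Log2 fold change against control (y axis, ± SE) of each gene (x axis) for each knockdown hairpin; filled points have an adjusted p below 0.05. The filled points are HSPA1A and HSPA1B for sh-A (0.67 and 1.02) and HSPA1A and HSPB1 for sh-B (-0.71 and -1.04), and all 10 points of sh-C lie above 0 in this fit (HSPB1 at 0.06, and at -0.02 with limma).

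HSP90AA1 and HSP90AB1 encode the cytosolic HSP90 proteins, and neither was called in any comparison with the control. HSP90AA1 was at 5766, 6382 and 5260.3 CPM in control 1 to 3, at 8294, 6520.1 and 6301 CPM in sh-A 3 to 5, at 6668, 4669.6 and 4625 CPM in sh-B 3 to 5 and at 7628, 6719 and 6585 CPM in sh-C 1 to 3. All sh-C libraries lay above all controls, while the sh-A and sh-B libraries overlapped them. Against control the log2 change of HSP90AA1 was 0.28 ± 0.15 (SE) with sh-A, -0.13 ± 0.15 with sh-B and 0.27 ± 0.15 with sh-C, at edgeR adjusted p of 0.19, 0.58 and 0.24. HSP90AB1 was at 2355, 2434 and 2062 CPM in the controls, at 3125, 2319 and 2152 CPM with sh-A, at 2586, 1850.1 and 1914 CPM with sh-B and at 3180.2, 2752 and 2668.5 CPM with sh-C. Again the sh-C libraries were all above the controls, with a log2 difference of 0.33 ± 0.16 and an adjusted p of 0.16. The sh-A and sh-B estimates for HSP90AB1 were 0.15 and -0.11, with adjusted p of 0.52 and 0.64. Each of the 3 libraries that stood apart was the highest of its group for both genes. Without them HSP90AA1 (log2 -0.32, adjusted p = 0.0028) and HSP90AB1 (log2 -0.28, adjusted p = 0.0062) were lower with sh-B. With sh-C they were then 0.20 and 0.25 higher on the log2 scale (adjusted p = 0.042 and 0.013). The ratio of HSP90AA1 to HSP90AB1 in FPKM stayed between 1.87 and 2.29 in the 12 libraries, with 1.98 ± 0.0656 in the controls, 2.19 ± 0.111 with sh-A, 1.96 ± 0.0586 with sh-B and 1.90 ± 0.0300 with sh-C.

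HSPA1A and HSPA1B, neighbouring genes for the stress-inducible HSP70, differed between the hairpins in direction. Their transcripts share most of their sequence (74.3% of the 31-base words of HSPA1A occur in HSPA1B), so the split of reads between them is uncertain and their sum was tested as well. HSPA1A was at 176, 174 and 199 CPM in the controls, at 348, 259.7 and 265 CPM with sh-A, at 130.0, 104.5 and 100.3 CPM with sh-B and at 224, 247 and 226 CPM with sh-C. No knockdown library overlapped the controls: those of sh-A and sh-C were all higher and those of sh-B all lower. The log2 change was 0.67 ± 0.13 with sh-A (adjusted p = 0.0024), -0.71 ± 0.13 with sh-B (adjusted p = 0.0013) and 0.34 ± 0.13 with sh-C (adjusted p = 0.081). In CPM, HSPA1B lay at 137, 129 and 149.6 in the controls, at 452, 196.5 and 195 with sh-A, at 100.4, 93.7 and 100.6 with sh-B and at 165, 166 and 186 with sh-C. Here too no group overlapped the controls, and 1 library, sh-A 3, was far above its mates. HSPA1B rose by 1.02 ± 0.25 on the log2 scale with sh-A (adjusted p = 0.011), and its values were -0.50 ± 0.25 with sh-B (adjusted p = 0.17) and 0.31 ± 0.25 with sh-C (adjusted p = 0.42). Without the 3 libraries that stood apart, the sh-A changes of HSPA1A and HSPA1B were 0.52 and 0.50 (adjusted p = 2.9e-05 and 7.1e-05), so the value for HSPA1B was less than that with all libraries while the call held. HSPA1B was then also called with sh-B (log2 -0.51, adjusted p = 6.8e-05), and with sh-C both HSPA1A (0.37, adjusted p = 0.00063) and HSPA1B (0.34, adjusted p = 0.0017) were. Fitted on 1 hairpin and the control libraries alone, HSPA1B missed the threshold with sh-A (adjusted p = 0.062) and passed it with sh-B (log2 -0.50, adjusted p = 0.0016) and sh-C (0.31, adjusted p = 0.016), as did HSPA1A with sh-C (0.34, adjusted p = 0.0081).

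Summed over the pair, the level was 303 to 348 CPM in the controls, 456 to 799.9 CPM with sh-A, 198 to 230.4 CPM with sh-B and 389 to 413 CPM with sh-C. The sum rose with sh-A by 0.83 ± 0.18 on the log2 scale (adjusted p = 0.0048) and fell with sh-B (log2 -0.62 ± 0.18, adjusted p = 0.021). With sh-C it was 0.33 ± 0.18 higher, which did not pass (adjusted p = 0.22). With sh-A 3 left out, the rise of the sum with sh-A was 0.51 ± 0.09 (adjusted p = 0.0009). Without all 3 libraries that stood apart, the sum was at 0.51 with sh-A, -0.69 with sh-B and 0.36 with sh-C (adjusted p = 1.8e-05, 1.6e-06 and 0.00046). HSPA1A made up 43.5% of the pair in sh-A 3 and 49.9% to 59.8% in the other 11 libraries. Between the hairpins named in the design text, sh-B and sh-C, the difference of the sum was -0.95 ± 0.18 (adjusted p = 0.0021).

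HSPA8, which encodes the constitutive HSC70, did not follow the inducible pair with sh-A or sh-B. With sh-C its estimate lay above 0, as did those of the pair, and none was called with all libraries. HSPA8 was at 2639.7, 2847 and 2393 CPM in the controls, at 3354, 2209.9 and 2193 CPM with sh-A, at 4198, 2705 and 2686 CPM with sh-B and at 3727, 3935 and 3718 CPM with sh-C. All sh-C libraries were above the controls, and in sh-A and sh-B 1 library was above them while the other 2 lay below (sh-A) or within (sh-B) the control range. Its log2 change was -0.02 ± 0.19 with sh-A (adjusted p = 0.94), 0.28 ± 0.19 with sh-B (adjusted p = 0.29) and 0.53 ± 0.19 with sh-C (adjusted p = 0.071). The sh-C value passed with DESeq2 (0.52, adjusted p = 0.031) and without the 3 libraries that stood apart (0.54, adjusted p = 4.6e-05). Without those libraries HSPA8 was lower with sh-A (log2 -0.26, adjusted p = 0.0091). In FPKM, the inducible pair was 10.0% to 13.6% of the HSPA8 level in the controls. It was 19.3% to 22.2% with sh-A, 5.1% to 7.0% with sh-B and 9.8% to 10.3% with sh-C. The sh-A and sh-B ranges lay wholly above and wholly below that of the controls, sh-A 3 and sh-B 3 included, and the sh-C range overlapped it.

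**Figure D3:**
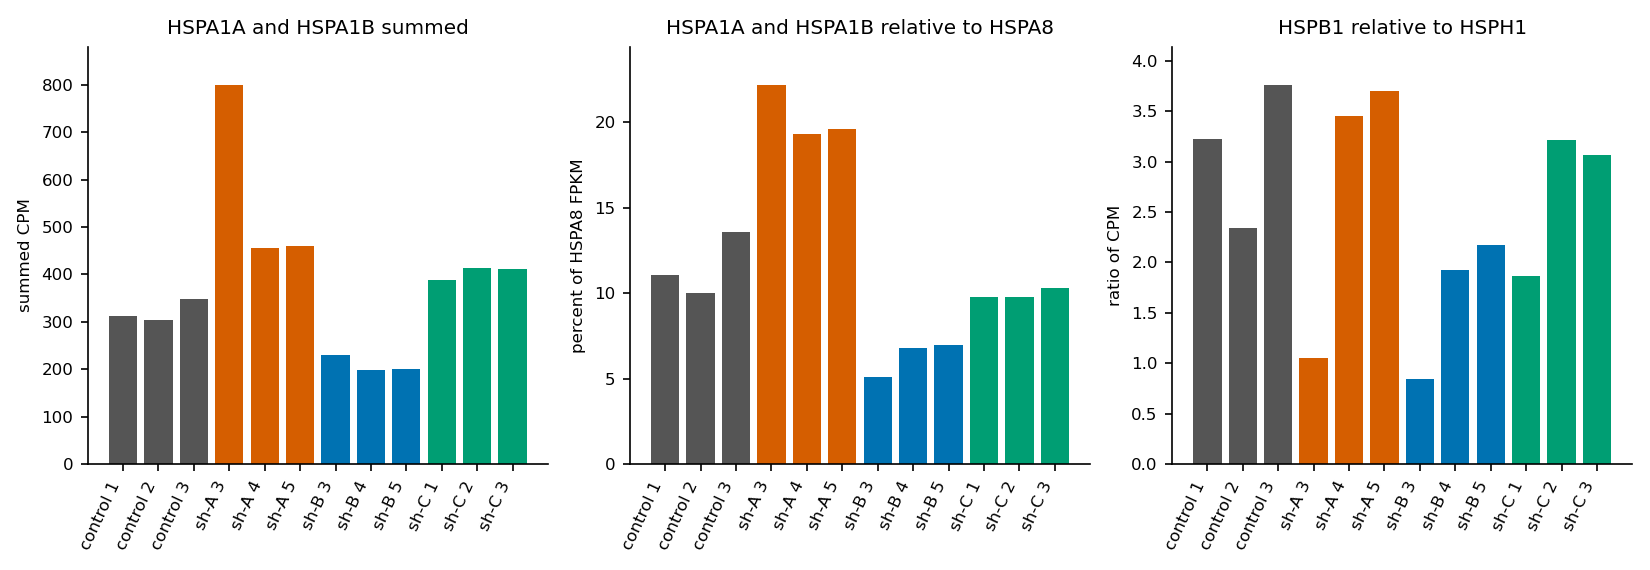
For each of the 12 libraries (x axis), the summed CPM of HSPA1A and HSPA1B (left), their summed FPKM as a percent of HSPA8 FPKM (middle) and the ratio of HSPB1 to HSPH1 CPM (right), with bars from 0 coloured by group. The middle panel shows 19.3% to 22.2% in the sh-A libraries and 5.1% to 7.0% in the sh-B libraries, and the right panel shows its lowest values in sh-B 3 (0.84) and sh-A 3 (1.05).

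HSPH1 and DNAJB1 encode helpers of HSP70, a nucleotide exchange factor and a DnaJ cochaperone, and neither was called against the control. HSPH1 was at 263, 289 and 246 CPM in the controls, at 519, 283 and 276 CPM with sh-A, at 379, 222.5 and 207 CPM with sh-B and at 373.5, 287 and 303 CPM with sh-C. In each knockdown group the library that stood apart was the highest, and the groups overlapped the controls. The log2 changes of HSPH1 were 0.43, 0.02 and 0.27 with an SE of 0.26 each (adjusted p = 0.24, 0.98 and 0.51). Without the 3 libraries HSPH1 was lower with sh-B (log2 -0.31, adjusted p = 0.0024), and the values were 0.07 with sh-A and 0.15 with sh-C (adjusted p = 0.43 and 0.096). DNAJB1 was nearly constant in the controls, at 134, 134 and 130.4 CPM. It was at 138, 104 and 96.0 CPM with sh-A, at 145, 116 and 122 CPM with sh-B and at 156, 154 and 159 CPM with sh-C. The sh-C libraries were all above the controls, and 2 of the 3 libraries of sh-A and of sh-B were below them. DNAJB1 changed by -0.24 ± 0.12 with sh-A, -0.06 ± 0.12 with sh-B and 0.23 ± 0.12 with sh-C (adjusted p = 0.17, 0.76 and 0.21). With sh-A 3 left out, the value for sh-A was -0.41 ± 0.09 and passed (adjusted p = 0.0051). Without all 3 libraries that stood apart, DNAJB1 was called with each hairpin, at -0.41 with sh-A, -0.16 with sh-B and 0.23 with sh-C (adjusted p = 6.8e-05, 0.036 and 0.0049). This fit was chosen after seeing the data, and its SE for DNAJB1 with sh-A was 0.06, against 0.12 with all libraries.

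HSPD1 and HSPE1 are the genes of the mitochondrial HSP60 and HSP10 and share a bidirectional promoter. Their log2 CPM correlated at a Pearson's r of 0.89 over the 12 libraries, below the 0.98 of HSPE1 with HSP90AA1. HSPD1 was at 1536, 1555 and 1302 CPM in the controls, at 2241, 1405 and 1364 CPM with sh-A, at 1948, 1295 and 1303.5 CPM with sh-B and at 2233, 1801 and 1709 CPM with sh-C. Its sh-C libraries all exceeded the controls, and in the other groups only the library that stood apart did. The log2 changes of HSPD1 were 0.19, 0.05 and 0.39 with an SE of 0.20 each (adjusted p = 0.53, 0.89 and 0.21). For HSPE1 the values were 259, 258 and 237 CPM in the controls, 396, 279 and 287 CPM with sh-A, 302, 193 and 194 CPM with sh-B and 384, 316.5 and 284 CPM with sh-C. All libraries of sh-A and of sh-C were above the controls, and those of sh-B lay on both sides. The log2 changes of HSPE1 were 0.35 ± 0.18, -0.13 ± 0.19 and 0.38 ± 0.19 (adjusted p = 0.18, 0.64 and 0.17). Without the 3 libraries, HSPE1 differed from control with each hairpin: 0.17 with sh-A (adjusted p = 0.041), -0.38 with sh-B (adjusted p = 0.0003) and 0.26 with sh-C (adjusted p = 0.0051). HSPD1 then passed with sh-C alone (0.26, adjusted p = 0.01), at -0.08 with sh-A and -0.17 with sh-B (adjusted p = 0.39 and 0.073). The HSPD1 to HSPE1 ratio in FPKM was 2.35 ± 0.112 in the controls, 2.08 ± 0.184 with sh-A, 2.67 ± 0.0635 with sh-B and 2.35 ± 0.0709 with sh-C. The sh-B ratios (2.60 to 2.71) all lay above those of the controls (2.22 to 2.43), which the sh-A and sh-C ratios overlapped. The files also list a readthrough gene of HSPE1 and MOB4, which shares 17.7% of the 31-base words of HSPE1.

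HSPB1, the gene of the ATP-independent holdase HSP27, had the largest change among the 10 genes with sh-B. It was at 848, 678 and 926 CPM in the controls, at 545.5, 974 and 1022 CPM with sh-A, at 318, 426 and 450.1 CPM with sh-B and at 699, 923 and 929 CPM with sh-C. All sh-B libraries were below every control, while the sh-A and sh-C libraries overlapped the controls. HSPB1 fell with sh-B (log2 -1.04 ± 0.22, adjusted p = 0.0042), a level 0.49 times that of control. Leaving out the 3 libraries gave -0.90 (adjusted p = 6.9e-06). The values with sh-A and sh-C were 0.05 ± 0.22 and 0.06 ± 0.22 (adjusted p = 0.88 and 0.89). Of the 10 genes, HSPB1 alone was the lowest of its group in all of sh-A 3, sh-B 3 and sh-C 1. Without those libraries its sh-A value was 0.29 (adjusted p = 0.025). In bulk RNA, fewer cells expressing a gene and less RNA per cell cannot be told apart.

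The difference between hairpins was tested directly. In sh-B against sh-C, 3 of 10 members were called, all lower with sh-B, where 27.9% of all genes were called and 14.9% were called lower: HSPA1A (log2 -1.06 ± 0.13, adjusted p = 0.00011), HSPA1B (-0.81 ± 0.25, adjusted p = 0.032) and HSPB1 (-1.09 ± 0.22, adjusted p = 0.0032). All 10 estimates were below 0, with a median of -0.41 beside -0.01 over all genes. HSP90AB1, HSPE1 and HSP90AA1 came near the threshold, at -0.44, -0.51 and -0.39 (adjusted p = 0.054, 0.056 and 0.071). Leaving out any 1 library of sh-B or sh-C put HSPA1B above the threshold (adjusted p of 0.061 to 0.1), and leaving out sh-B 3 raised the members called to 7, where 29.4% of all genes were called. Leaving out all 3 libraries that stood apart raised it to 10, where 46.5% of all genes were called and 24.9% were called lower. KAT5 itself was 0.78 ± 0.10 higher on the log2 scale with sh-B than with sh-C.

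In sh-A against the average of sh-B and sh-C, 5 of 10 members were called where 45.8% of all genes were, with 24.4% called higher and 21.3% lower. HSPA1A (0.85 ± 0.11, adjusted p = 4.7e-05), HSPA1B (1.11 ± 0.21, adjusted p = 0.001) and HSPB1 (0.54 ± 0.19, adjusted p = 0.032) were higher with sh-A. The value of HSPA1B was 0.59 (adjusted p = 3.2e-05) with sh-A 3 left out. DNAJB1 (-0.33 ± 0.11, adjusted p = 0.026) and HSPA8 (-0.43 ± 0.16, adjusted p = 0.0496) were lower. HSPA1A and HSPA1B did not overlap between the 3 sh-A libraries and the 6 others, and the other called members did. The share of all genes without overlap was not counted for this contrast. The call of HSPA8 was lost when any 1 of sh-A 4, sh-A 5, sh-B 3 or the sh-C libraries was left out (adjusted p of 0.067 to 0.19), and with DESeq2 size factors (adjusted p = 0.053), a minimum count of 50 (0.061), limma (0.095) or only the groups compared (0.085). Those of DNAJB1 and HSPB1 were lost without sh-A 4 (adjusted p = 0.1 and 0.15) or sh-A 5 (adjusted p = 0.14 and 0.17), that of DNAJB1 also with limma (adjusted p = 0.058) or only the groups compared (adjusted p = 0.059), and that of HSPB1 also without sh-B 3 (adjusted p = 0.065) or sh-C 1 (adjusted p = 0.066). With the 3 libraries that stood apart left out, 7 members were called, beside 56.5% of all genes.

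In each library that stood apart, HSPH1, HSPD1 and HSPE1 were above the 90th percentile and HSPB1 below the 10th percentile of genes over 50 CPM, relative to the group mates. Sh-A 3 was the highest of its group for 9 of the 10 genes and the lowest for HSPB1, where 47.1% of genes over 50 CPM were highest in that library and 43.1% lowest. Relative to the mean of its mates, HSPA1B was at 2.31 times, HSPH1 at 1.86 times, HSPD1 at 1.62 times, HSPE1 at 1.40 times and HSPB1 at 0.55 times, against a 10th to 90th percentile of 0.74 to 1.34 for genes over 50 CPM. Sh-B 3 was the highest for 8 genes, with HSPA1B between its mates (1.03 times) and HSPB1 the lowest (0.73 times), where 54.2% of genes were highest and 37.0% lowest. Its largest ratios were 1.77 for HSPH1 and 1.56 for HSPA8 and HSPE1, with a 10th to 90th percentile of 0.81 to 1.33. In sh-C 1 the departures were smaller: HSPE1 was at 1.28 times, HSPH1 and HSPD1 at 1.27 times and HSPB1 at 0.76 times, with a 10th to 90th percentile of 0.84 to 1.23. There 5 members were highest and 3 lowest, where 43.9% and 38.3% of genes were. The ratio of HSPB1 to HSPH1 in CPM was lowest in the same library of each knockdown group, at 1.05 in sh-A 3, 0.84 in sh-B 3 and 1.87 in sh-C 1, against 2.34 to 3.76 in the controls. Control 2, at 2.34, likewise had the lowest HSPB1 (677.9 CPM) and the highest HSPH1 (289.4 CPM) of its group. Its HSPE1 was not the highest, at 258.3 CPM against 259.4 CPM in control 1. No control was compared with its mates by percentile, so whether the pattern is particular to the libraries that stood apart was not tested. What sets these libraries apart is not given in the labels and was not tested.

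**Figure D4:**
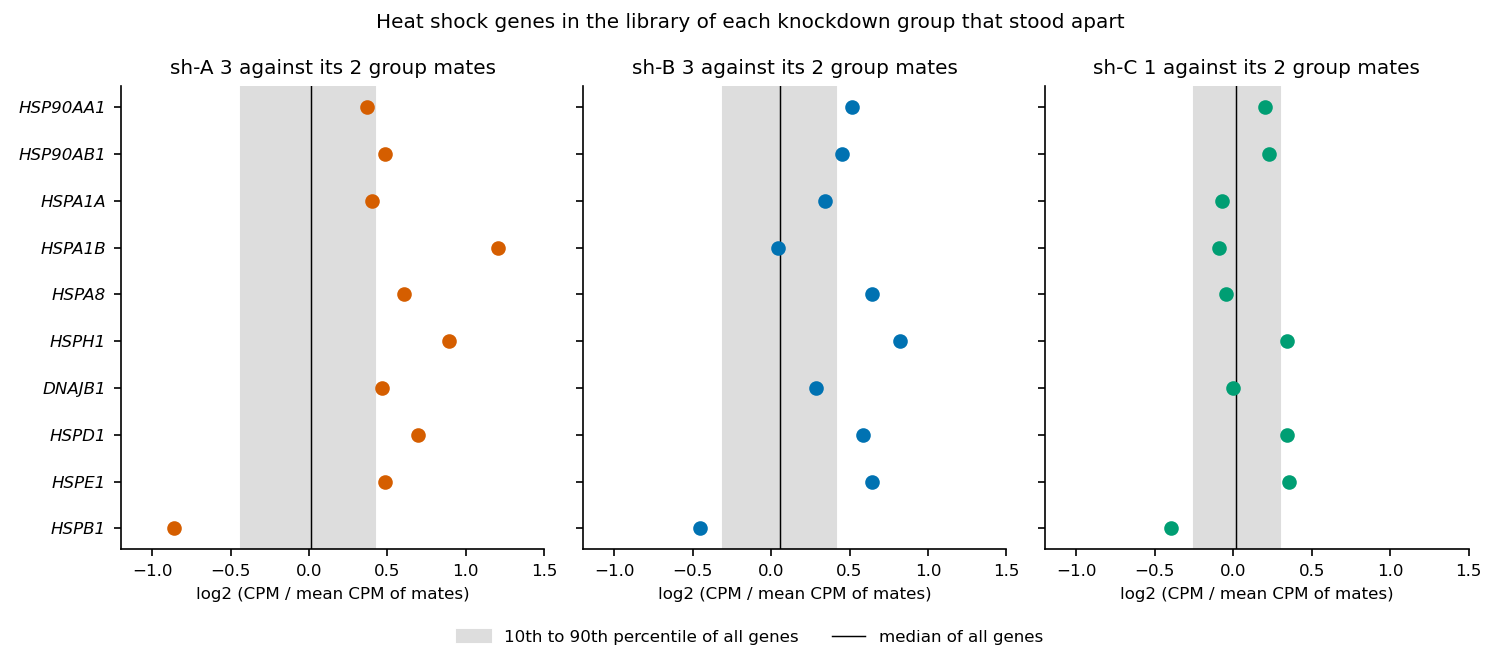
Log2 ratio (x axis) of each gene (y axis) in sh-A 3, sh-B 3 and sh-C 1 to the mean of its 2 group mates; the grey band spans the 10th to 90th percentile of tested genes over 50 CPM and the line is their median. HSPH1, HSPD1 and HSPE1 lie above the band and HSPB1 below it in all 3 panels (HSPB1 ratios 0.55, 0.73 and 0.76).

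Across the 12 libraries, which include the group differences and the 3 libraries that stood apart, the members fell into profiles that can be described by Pearson's r of log2 CPM. HSP90AA1 correlated with HSPE1 at 0.98 and with HSP90AB1 at 0.94, and HSP90AB1 with HSPD1 at 0.95. HSPH1 correlated with HSP90AA1, HSPD1 and HSPE1 at 0.90 to 0.92. HSPA1A correlated with HSPA1B at 0.91, a value that shared reads can raise, and with HSPA8 at 0.02. HSPA8 correlated with DNAJB1 at 0.87. HSPB1 ranged from -0.37 with HSPA8 to 0.66 with HSPA1A. Among 9951 genes with a mean of at least 10 CPM, those outside the members with the profile most like the summed HSPA1A and HSPA1B were PLCG1 (r = 0.976), SETD1A (0.971), NUP133 (0.967), ZNF777 (0.965) and AGK (0.964). For DNAJB1 they were CCDC117 (0.981), NOP56 (0.972), MRPL48 (0.970), SRSF7 (0.964) and DLAT (0.958). For HSPD1 they were DDX1 (0.990), LTV1 (0.981), U2AF1 (0.976), NOL10 (0.969) and FAIM (0.966). These values are over 12 libraries that share their groups and depth, and carry no test.

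The rest of the chaperone system was read from 9 lists. Over all genes tested, 14.4% rose and 12.3% fell with sh-A, 15.0% rose and 15.0% fell with sh-B, and 9.79% rose and 7.16% fell with sh-C. Among 9 other HSP70 and HSP110 family genes, 3 fell with sh-B and 0 rose. HSPA12A, a distant HSP70 relative, was at 6.3 to 7.7 CPM in the controls and 0.3 to 0.7 CPM with sh-B (log2 -3.82 ± 0.25, adjusted p = 1.3e-06), and it rose with sh-A by 0.70 ± 0.18 (adjusted p = 0.014). HSPA6, a strictly stress-inducible HSP70, fell with sh-B from a low level, 1.83 CPM in the controls (log2 -2.78 ± 0.29, adjusted p = 4.2e-05). With sh-C, 0 of the 9 were called. Of 9 other small heat shock genes only 3 passed the filter. HSPB6 was at 132.5 to 144 CPM in the controls, 11.3 to 18.6 CPM with sh-B and 73.2 to 118 CPM with sh-C, and it fell with both (log2 -3.33 ± 0.21 and -0.64 ± 0.19, adjusted p = 1.3e-06 and 0.04). HSPB8 rose with sh-A (0.46 ± 0.15, adjusted p = 0.04) and with sh-C (0.64 ± 0.15, adjusted p = 0.015).

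Of 16 other DnaJ genes, 4 fell and 0 rose with sh-A, 2 rose and 0 fell with sh-B and 0 were called with sh-C. DNAJC9, a histone chaperone with a J domain, fell with sh-A (log2 -1.03 ± 0.16, adjusted p = 0.00063), and DNAJB5 rose with sh-B (0.59 ± 0.13, adjusted p = 0.0056). Among 16 HSP90 cochaperones 1 gene rose with each hairpin and 0 fell: CDC37L1 with sh-A and sh-B (0.31 ± 0.10 and 0.82 ± 0.10, adjusted p = 0.044 and 0.00014) and PPP5C, a phosphatase that binds HSP90, with sh-C (0.40 ± 0.09, adjusted p = 0.013). FKBP5 was not called with any hairpin, at -0.11, -0.17 and -0.02. Among 9 nucleotide exchange and partner genes of HSP70, BAG3, a known HSF1 target that links HSP70 to autophagy, rose with sh-B from 140.1 to 159.5 CPM in the controls to 203 to 245 CPM (0.61 ± 0.10, adjusted p = 0.00065). BAG3 moved opposite to HSPA1A and HSPB1 in the sh-B libraries. BAG5 fell with sh-A (log2 -0.60 ± 0.09, adjusted p = 0.00062), SIL1 fell with sh-B (log2 -0.55 ± 0.14, adjusted p = 0.012) and HSPBP1 rose with sh-C (0.78 ± 0.16, adjusted p = 0.0099).

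Of 15 genes of the cytosolic CCT chaperonin and prefoldin, 3 rose and 0 fell with sh-C, and 3 fell and 0 rose with sh-B. CCT3 was in both sets, at 562 to 590.0 CPM in the controls, 381.5 to 484 CPM with sh-B and 724 to 797 CPM with sh-C (log2 -0.47 ± 0.12 and 0.40 ± 0.12, adjusted p = 0.012 and 0.044). Among 12 mitochondrial chaperone and protease genes 4 rose and 0 fell with sh-C, including TRAP1, the mitochondrial HSP90 (0.47 ± 0.09, adjusted p = 0.0067), and CLPP (0.60 ± 0.13, adjusted p = 0.011). TRAP1 also rose with sh-A (0.52 ± 0.09, adjusted p = 0.0014) and was at -0.15 with sh-B (adjusted p = 0.24). HSPA9, the mitochondrial HSP70, was not called with any hairpin (-0.33, -0.01 and 0.15). Of 16 endoplasmic reticulum chaperones 6 fell and 1 rose with sh-A, among the former HSP90B1 (log2 -0.58 ± 0.16, adjusted p = 0.016), while HSPA5 (BiP) was at -0.49 ± 0.18 and not called (adjusted p = 0.068). With sh-B 3 fell and 1 rose, PDIA4 with the smallest adjusted p (log2 -0.64 ± 0.07, adjusted p = 7.7e-05), and with sh-C 1 rose.

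Heat shock factors, their regulators and other known HSF1 targets made up a list of 11. HSF1 itself rose with sh-C (0.45 ± 0.10, adjusted p = 0.012) and was at 0.18 and 0.22 with sh-A and sh-B (adjusted p = 0.19 and 0.11). HSF2 was not called with any hairpin. HMOX1, heme oxygenase 1, was at 79.0 to 89.1 CPM in the controls, 123 to 157 CPM with sh-A and 30.2 to 40.7 CPM with sh-B. It rose with sh-A (0.78 ± 0.14, adjusted p = 0.0018) and fell with sh-B (log2 -1.28 ± 0.15, adjusted p = 7e-05), the directions of HSPA1A. In the list as a whole, 1 rose and 2 fell with sh-A, 0 rose and 3 fell with sh-B, and 3 rose and 1 fell with sh-C. The list medians were 0.17, -0.04 and 0.32.

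**Figure D5:**
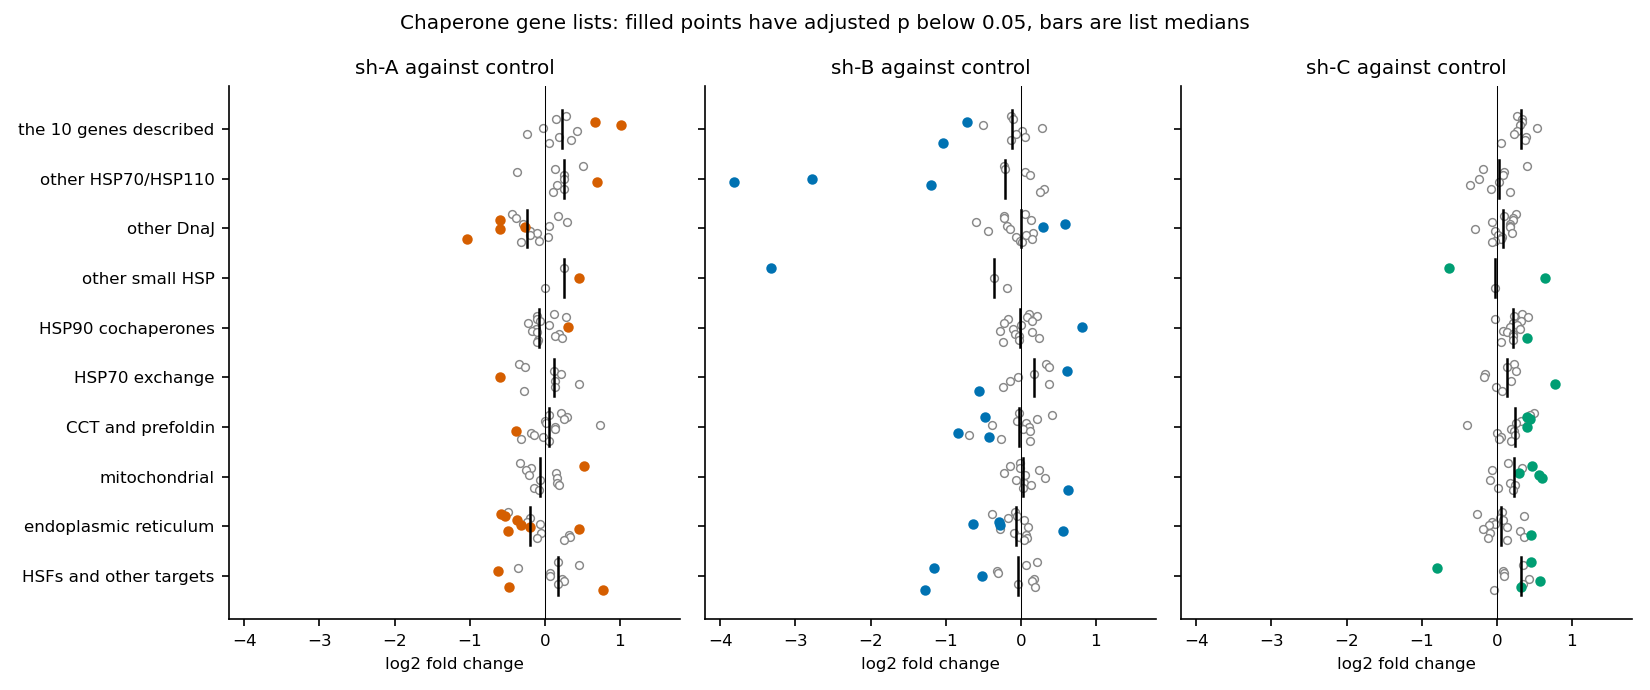
Log2 fold change against control (x axis) of each gene in the 10 members and 9 further chaperone lists (y axis), for sh-A, sh-B and sh-C; filled points have an adjusted p below 0.05 and black bars are list medians. With sh-B the lowest points are HSPA12A (-3.82) and HSPB6 (-3.33), and with sh-C the median of the 10 members is 0.32.

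The authors' deposited table for each hairpin gives a probability of equal expression (PPEE) per gene. Read at a PPEE below 0.05, the authors' deposited tables held 1 of the 10 members for sh-A (HSPA1A), 3 for sh-B (HSPA1A, HSPA1B and HSPB1) and 4 for sh-C (HSPA1A, HSPA1B, HSPA8 and DNAJB1), beside 22.0%, 28.3% and 23.7% of all genes in the authors' deposited tables. A PPEE is not a p-value, and this reading is not matched to the edgeR calls. For HSPA1B with sh-A the authors' deposited table gave a log2 ratio of 1.02 with a PPEE of 0.97.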

How the data were processed

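RNA of 12 libraries was selected on oligo(dT) beads and copied with random primers, per the labels' protocols, which name no step that marks strand. For each library the authors deposited expected counts and FPKM per gene, made with HISAT, Bowtie2 and RSEM on the build hg19, per the submitters' processing notes. Their versions and settings: not given in the sources used here. The authors also deposited, per hairpin, group means as a normalised signal, a log2 ratio and a probability of equal expression (PPEE), which entered no test.

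Expected counts, of which 66.1% above 0 were exactly whole as deposited (2 decimals), were rounded and tested over 15592 genes with edgeR 4.0.16 (R 4.3.3; TMM scaling, default low-count filter, 1 mean per group over all 12 libraries, quasi-likelihood F-test, biological coefficient of variation 0.145). Standard errors are the absolute log2 change divided by the square root of F. The test was tested on simulated data. Alternatives used DESeq2 1.42.0, its size factors, no filter, a minimum count of 50, limma 3.58.1 on log2(FPKM + 1), only the groups compared, a replicate block, each library left out, and, chosen after seeing the data, the sum of HSPA1A and HSPA1B (also with sh-A 3 or all of the following left out) and the fit that leaves out sh-C 1, sh-A 3 and sh-B 3.

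The genes named are all members, KAT5, up to 3 genes per further list with the smallest adjusted p below 0.05 per comparison, and HSF1, HSF2, BAG3, HSPA5, HSP90B1, HSPA9, TRAP1 and FKBP5. The members and lists were chosen with earlier results of these data known. Of the small heat shock list, HSPB2 and HSPB3 were not matched. Columns of per-sample values matching no sample numbered 0. RefSeq promoters (GRCh38.p14) matched all 10 members. Shared 31-base words came from GENCODE transcripts of GRCh38. Same-numbered control and sh-C libraries did not deviate together.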

Additional observations from a re-analysis of the deposited data

Results flagged for a closer look

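The difference between 2 hairpins was past the threshold of the direct edgeR test for 3 members in sh-B against sh-C: HSPA1A at -1.06, HSPA1B at -0.81 and HSPB1 at -1.09 on the log2 scale, each lower with sh-B. Of all genes tested, 27.9% were called in this contrast and 14.9% were called lower. The call of HSPA1B held in 0 of 6 fits that left out 1 library. All 3 sh-B libraries lay below all 3 sh-C libraries for each of the 3 members called, and also for HSP90AB1 and DNAJB1, which were not called. The share of all genes without overlap was not counted for this contrast. Against the control that share was 43.7% with sh-A, 48.7% with sh-B and 45.4% with sh-C. In sh-A against the average of sh-B and sh-C, the difference was past the threshold for 5 members: HSPA1A at 0.85, HSPA1B at 1.11 (0.59 with sh-A 3 left out), HSPA8 at -0.43, DNAJB1 at -0.33 and HSPB1 at 0.54. Of all genes tested, 45.8% were called in this contrast. Of 9 fits that left out 1 library, HSPA8 was called in 3, HSPB1 in 5 and DNAJB1 in 7. These contrasts compare hairpins, and the comparisons with the control that lie behind them share the control libraries.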

How the results depend on the processing

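HSPA1A kept its direction and its call with sh-A and with sh-B in all 13 alternatives run for each (log2 0.52 to 0.73 and -0.84 to -0.65), as did HSPB1 with sh-B (log2 -1.16 to -0.90). Fitting only the groups compared, members called were 1 for sh-A, 3 for sh-B (HSPA1B added), 7 for sh-C and 3 for sh-A against the average of sh-B and sh-C, beside 21.9%, 36.3%, 32.9% (4862 genes) and 41.0% of all genes. With sh-C 1, sh-A 3 and sh-B 3 left out together, members called were 6 for sh-A, 8 for sh-B, 8 for sh-C and 10 for sh-B against sh-C, and genes called were 7231, 7388, 6725 and 7307. The 8 for sh-B and the 10 for sh-B against sh-C were all lower, and the 8 for sh-C were all higher. DESeq2 called 2 members for sh-C and 6 for sh-B against sh-C, beside 22.4% and 30.6% of all genes, and a minimum count of 50 gave 5 for the latter, beside 32.3%. With a replicate block, 6 members and 3670 genes (24.8%) were called for sh-C, but the numbers pair nothing in the labels, and same-numbered libraries correlated at -0.13, -0.26 and 0.19. No paired analysis was possible for sh-A and sh-B because they share fewer than 2 numbers with the control. Leaving out each library in turn, members called were 2 to 3 for sh-A, 2 to 2 for sh-B and 0 to 0 for sh-C. Beside them, 2985 to 4892, 3236 to 4299 and 766 to 2762 of all genes were called (766 without sh-C 2). For sh-B against sh-C, 2 to 7 members (7 without sh-B 3) and 2918 to 4668 genes were called. For sh-A against the mean, 2 to 5 members (2 without sh-A 4 or sh-A 5, 3 without sh-C 1) and 6049 to 7807 genes were called. Signs turned for members not called with all libraries, 1 of them (HSPH1 with sh-B) into a call. With sh-A, HSP90AB1 was -0.03 and HSPD1 -0.08 without sh-A 3, and also without the 3 libraries, and over the left-out libraries they were -0.03 to 0.25 and -0.08 to 0.31. HSPA8 was 0.01 with limma and -0.25 to 0.08 over the left-out libraries, and HSPB1 -0.11 to 0.29. With sh-B, HSPH1 was -0.00 at a minimum count of 50, -0.07 with limma, -0.31 without the 3 libraries and -0.31 to 0.17 over the left-out libraries. HSPD1 was -0.01 with limma, -0.17 without the 3 libraries and -0.17 to 0.14 over the left-out libraries. With sh-C, HSPB1 was -0.02 with limma and -0.07 to 0.18 over the left-out libraries. The cause of these shifts was not tested.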
